A study of Paralichthys olivaceus with 6 samples.

Results

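Amino acid transporters of the solute carrier families were described in gonads of sterile and fertile Japanese flounder (*Paralichthys olivaceus*) females. The members were all unigenes (merged assembled transcripts) in S1 File, the list of differentially expressed unigenes, whose symbol begins with *slc1a*, *slc3a*, *slc6a*, *slc7a*, *slc36a*, *slc38a* or *slc43a*. Of 52474 unigenes in the count table, 1225 are in that list and 9 of these met the rule. By symbol they stand for 6 genes, with *slc3a2b* and *SLC3A2* taken as 1. These are *slc1a4* (3 unigenes), *slc3a2* (2 unigenes, named *slc3a2b* and *SLC3A2*), *slc6a14*, *Slc6a15*, *slc6a18* and *slc38a2*. Whether the unigenes grouped here come from 1 gene was not tested. No unigene of the list carries a *slc7a*, *slc36a* or *slc43a* symbol. Because S1 File was selected on these same fish and this same contrast, the levels and fold changes of the members are given as a description with no test.

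All fish were double haploid (DH) females, which carry a duplicated single set of chromosomes, from a single wild mother and 5 years old. The 3 sterile females were taken to be libraries S1, S4 and S5, and the 3 fertile females F1, F2 and F3. By the labels the sterile samples had stage III ovaries and the fertile samples stage V ovaries. Fertility and ovarian stage therefore cannot be told apart. Each library was taken as 1 fish, although the labels speak of pooled RNA. S4 and S5 match no sample title and their column names carry another ending than those of the other 4 libraries. They also had the highest total counts. Of 52474 unigenes, 28 had at least 5 counts in both and none elsewhere, and no other pair of libraries was counted in this way. By name, only their letter places S4 and S5 with the sterile fish, and so with stage III. In the paper, the sterile samples other than S1 also had the most clean reads of all samples. The total counts of S4 and S5 were close to the clean read pairs of those samples, as in the other 4 libraries. No label links the column names to them. Values with S1 as the only sterile library are therefore given as well.

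Amino acid transporters carry amino acids across the cell membrane, by cotransport with sodium or by exchange of one amino acid for another. The SLC1, SLC6 and SLC38 families hold complete carriers, whereas SLC3 proteins are heavy chains that bring SLC7 light chains to the cell surface and do not transport on their own. In a fish ovary, growing oocytes take up yolk precursors and nutrients from the surrounding follicle cells and the blood.

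Levels are CPM, the count of a unigene relative to all counts of its library. Total counts were 25024469 to 35719683 in the sterile libraries and 25816309 to 29040459 in the fertile libraries. A count of 3, taken as a floor for reading low values, stood for 0.0840 to 0.120 CPM in the sterile libraries. In the fertile libraries it stood for 0.103 to 0.116 CPM. A count of 0 was kept as 0 CPM in all means and sums. The log2 fold changes are sterile over fertile, so a negative value means lower in sterile gonads, and the median over all 35787 tested unigenes was 0.01. In these bulk samples, fewer cells of a type and less RNA per cell cannot be told apart.

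In all, 6 unigenes had a higher mean in fertile gonads and 3 had a higher mean in sterile gonads. Those higher in fertile gonads were all 3 *slc1a4* unigenes, *slc38a2*, *Slc6a15* and *slc6a18*, which encode complete carriers. The *slc3a2* heavy chain unigenes and *slc6a14* were higher in sterile gonads. CPM did not overlap between the groups for 5 unigenes that were higher in fertile and 2 that were higher in sterile gonads. Of all tested unigenes, 19.4% did not overlap with the fertile fish higher and 5.36% with the sterile fish higher. Nothing is read from the members' counts beside these shares, since the members were chosen by the same contrast.

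**Figure D1:**
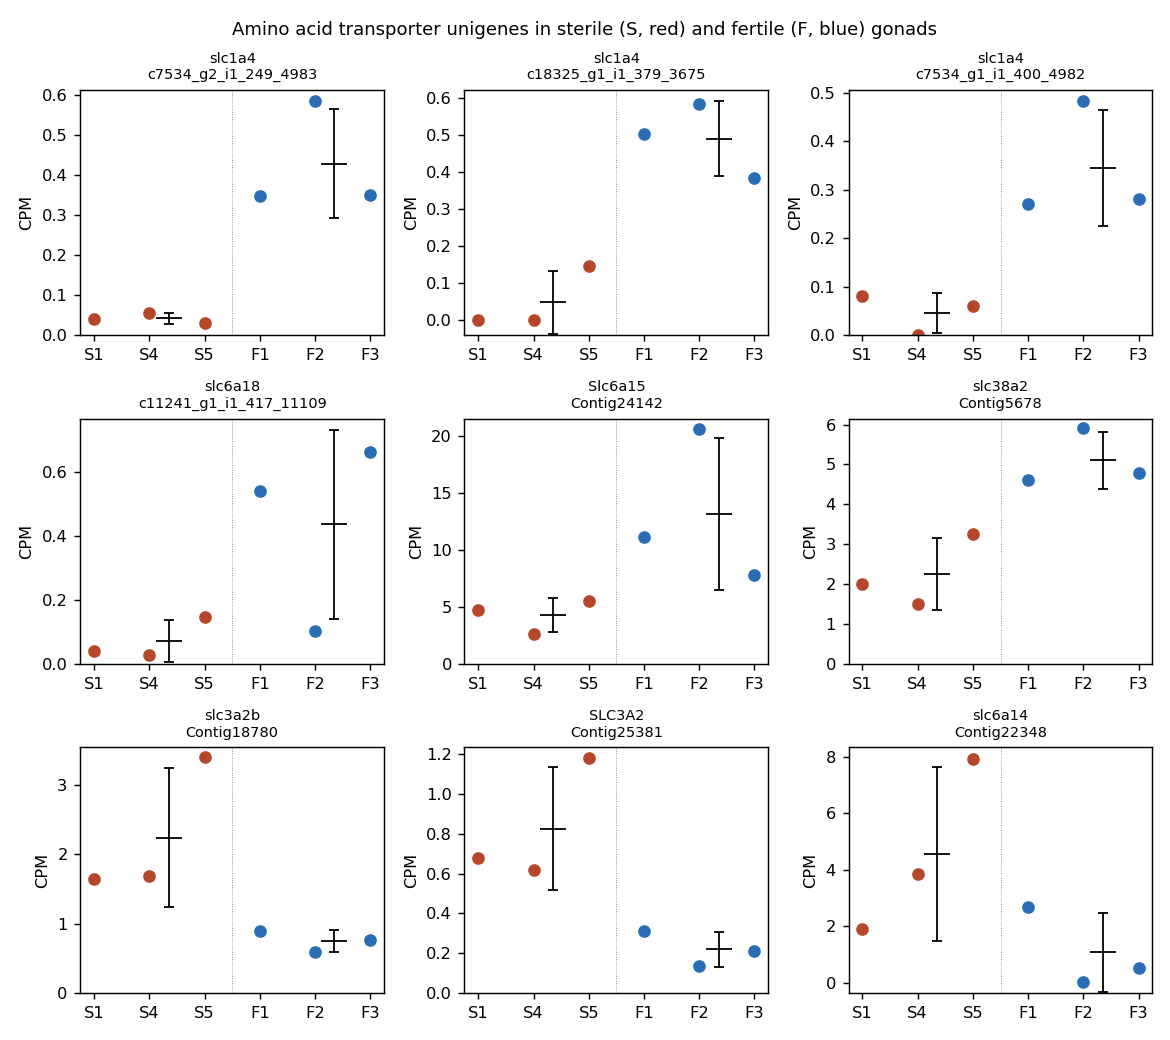
CPM of the 9 transporter unigenes in each library (points, sterile in red and fertile in blue), with the mean and SD of each group of 3 (cross and bar), each panel on its own linear scale. The groups overlap in the panels of *slc6a18*, where F2 (0.103 CPM) lies below S5 (0.148 CPM), and of *slc6a14*, where S1 (1.92 CPM) lies below F1 (2.67 CPM).

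*slc1a4* encodes ASCT1, which exchanges alanine, serine and cysteine across the membrane. Its 3 unigenes were near the detection limit in sterile gonads. The unigene c7534_g2_i1_249_4983 had 1, 2 and 1 counts in S1, S4 and S5, against 9, 17 and 10 counts in F1, F2 and F3. These counts are 0.0418 ± 0.0133 CPM in sterile and 0.428 ± 0.136 CPM in fertile gonads (mean ± SD, n = 3 each), with a log2 fold change of -3.11 (standard error 0.51). Every sterile fish was below the floor of 3 counts and every fertile fish was well above it. The unigene c18325_g1_i1_379_3675 had 0, 0 and 5 counts in S1, S4 and S5, against 13, 17 and 11 counts in F1, F2 and F3. Only S5 of the sterile fish had any count of it, and the log2 fold change was -3.01 (standard error 0.77). Without S4 this value was -2.37 and without S1 it was -2.56, and without S5 the sterile fish were all at 0.

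The remaining *slc1a4* unigene, c7534_g1_i1_400_4982, had 2, 0 and 2 counts in S1, S4 and S5, against 7, 14 and 8 counts in F1, F2 and F3. It did not pass the filter on low counts, and without that filter its log2 fold change was -2.79 (standard error 0.69). Its match in mouse is *Slc1a5*, which encodes ASCT2, the close relative of ASCT1 that carries glutamine, so its name differs between the species matched. It shares an assembler component with c7534_g2_i1_249_4983. Whether these short unigenes are parts of 1 transcript or of paralogs was not tested.

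Over the 3 unigenes, *slc1a4* had 3, 2 and 8 counts in S1, S4 and S5, against 29, 48 and 29 counts in F1, F2 and F3. This is 0.137 ± 0.0914 CPM in sterile and 1.26 ± 0.342 CPM in fertile gonads (SD, n = 3 each), a 9.19-fold higher mean in fertile gonads. Most of the sterile counts came from S5, without which the mean in fertile gonads was 14.4-fold higher. F2 was the highest fish for each of the 3 unigenes. The shares of the unigenes in these summed counts were alike among the fertile fish, where c18325_g1_i1_379_3675 held 44.8%, 35.4% and 37.9% in F1, F2 and F3. In the sterile fish it held 5 of the 8 counts of S5 and none of the 3 in S1 or the 2 in S4, too few counts in all to compare the shares between the groups.

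*slc38a2* encodes SNAT2, a sodium-coupled carrier of small neutral amino acids that mammalian cells induce when amino acids are scarce. Contig5678 had 1.998, 1.51 and 3.25 CPM in S1, S4 and S5, against 4.61, 5.92 and 4.79 CPM in F1, F2 and F3. All 3 fertile fish exceeded the highest sterile fish, S5. The group levels were 2.25 ± 0.897 CPM in sterile and 5.11 ± 0.712 CPM in fertile gonads (SD, n = 3 each), and the log2 fold change was -1.05 (standard error 0.29). Of the members this one lies closest to the 2-fold threshold that was used to choose the list. Unigenes outside the list carry no symbol in the sources used here, so no transporter just outside the threshold can be given. Without S5 its log2 fold change was -1.49, and without S4 it was -0.82.

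*Slc6a15* encodes B0AT2, a sodium-dependent carrier of branched-chain amino acids and proline that is best known from the mammalian brain. It was the most abundant member in fertile gonads by CPM, which is not corrected for length. Contig24142 had 4.76, 2.60 and 5.49 CPM in S1, S4 and S5, against 11.2, 20.7 and 7.80 CPM in F1, F2 and F3. The fertile fish were all higher than the sterile fish but differed by 2.65-fold among themselves, with F2 on top. The mean was 4.28 ± 1.502 CPM in sterile and 13.2 ± 6.67 CPM in fertile gonads (SD, n = 3 each), which gave a log2 fold change of -1.52 (standard error 0.39). Without F2 this value was -1.02.

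*slc6a18* encodes B0AT3, which takes up small neutral amino acids in the mammalian kidney. Its unigene c11241_g1_i1_417_11109 had 1, 1 and 5 counts in S1, S4 and S5, against 14, 3 and 19 counts in F1, F2 and F3. F2 was the low fish here and lay within the sterile range, so the groups overlapped, unlike those of the other members that were higher in fertile gonads. The unigene did not pass the filter on low counts, and the fit without that filter gave a log2 fold change of -2.36 (standard error 0.77). Without S5 this value was -3.48. A neighbour in the same assembler component, c11241_g2_i1_215_11110, is not in S1 File and has no symbol, and it was picked after its values had been seen. It had 2, 1 and 3 counts in S1, S4 and S5, against 10, 6 and 11 counts in F1, F2 and F3, and these groups did not overlap.

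*slc3a2* encodes the heavy chain 4F2hc (CD98), a surface glycoprotein that pairs with SLC7 light chains and also binds integrins, and that was first described on activated lymphocytes. Both of its unigenes were higher in sterile gonads without overlap. *slc3a2b* (Contig18780) had 1.64, 1.68 and 3.40 CPM in S1, S4 and S5, against 0.891, 0.585 and 0.769 CPM in F1, F2 and F3. *SLC3A2* (Contig25381) had 0.679, 0.616 and 1.18 CPM in S1, S4 and S5, against 0.310, 0.138 and 0.210 CPM in F1, F2 and F3. Its fertile values rest on only 8, 4 and 6 counts. For both unigenes S5 stood well above S1 and S4, which were close to each other, and F2 was the lowest fertile fish.

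*slc3a2b* had a log2 fold change of 1.72 (standard error 0.37) and *SLC3A2* one of 2.04 (standard error 0.43). Without S5 these values were 1.22 and 1.63. With S1 as the only sterile library they were 1.17 and 1.67, so that S1 alone also lay above the fertile fish. Summed, *slc3a2* had 3.06 ± 1.31 CPM in sterile and 0.968 ± 0.239 CPM in fertile gonads (SD, n = 3 each), a 3.17-fold higher mean in sterile gonads. *SLC3A2* held 79 of the 295 summed counts in the sterile fish and 18 of the 80 in the fertile fish. These are shares of 26.8% (95% Clopper-Pearson interval 21.8% to 32.2%) and 22.5% (13.9% to 33.2%), and the intervals, which cover counting error only, overlap. Per fish the share lay between 19.0% (F2) and 29.3% (S1). The fertile counts are too few to show that the ratio is the same in all fish. Whether the unigenes come from 1 gene or from near-identical copies that divide reads was not tested.

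**Figure D2:**
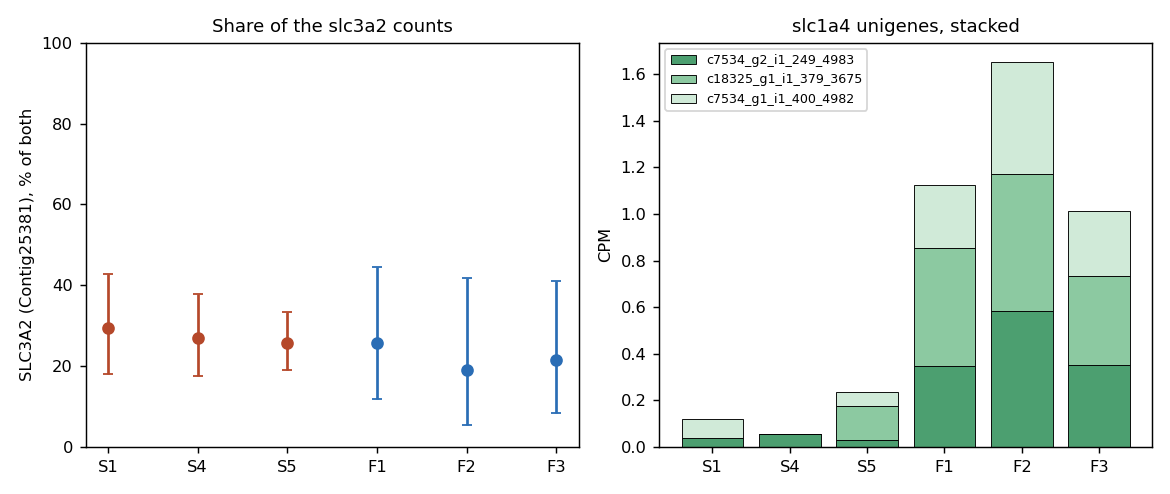
Left, share of *SLC3A2* (Contig25381) in the counts of both *slc3a2* unigenes per library, in percent, with the 95% Clopper-Pearson interval (sterile in red, fertile in blue). Right, CPM of the 3 *slc1a4* unigenes stacked per library. The share lies between 19.0% (F2) and 29.3% (S1), and the *slc1a4* bars reach at most 0.236 CPM in sterile (S5) and at least 1.01 CPM in fertile fish (F3).

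*slc6a14* encodes ATB0,+, which uses sodium and chloride to take up both neutral and cationic amino acids. Contig22348 varied most of the members among the fertile fish. It had 1.92, 3.84 and 7.92 CPM in S1, S4 and S5, against 2.67, 0.0344 and 0.524 CPM in F1, F2 and F3. The fertile fish spanned a 77.6-fold range, with 1 count in F2 and 69 in F1, and F1 lay above S1. The means were 4.56 ± 3.06 CPM in sterile and 1.08 ± 1.40 CPM in fertile gonads (SD, n = 3 each), and the log2 fold change was 2.28 (standard error 0.87). Which fish are included changes its size, from 0.91 with S1 as the only sterile library and 1.56 without S5 to 4.17 without F1.

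**Figure D3:**
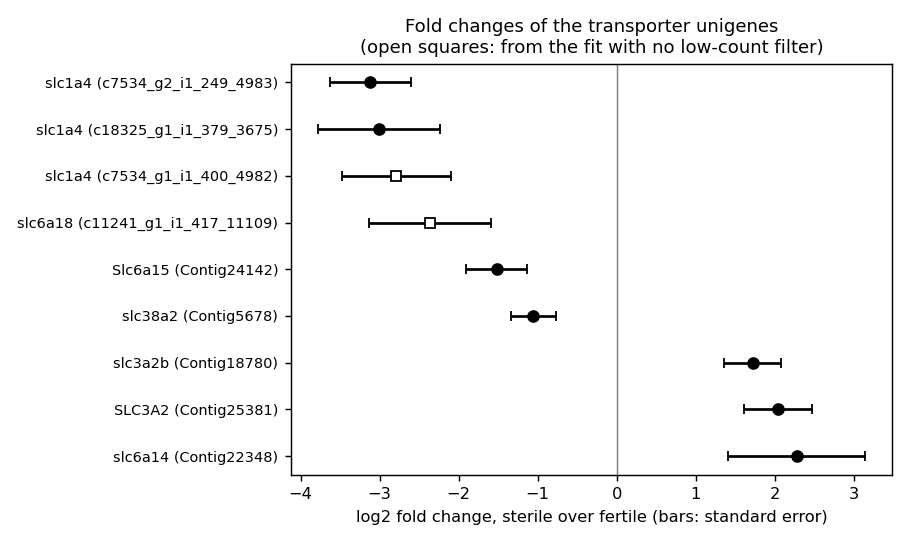
Log2 fold change, sterile over fertile, of each transporter unigene with its standard error (bars). Filled circles come from the fit with the low-count filter and open squares from the fit without it. The values lie between -3.11 and -1.05 for the 6 unigenes higher in fertile gonads and between 1.72 and 2.28 for the 3 higher in sterile gonads.

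In sum over unigenes, the 6 that were higher in fertile gonads had 6.91, 4.199 and 9.13 CPM in S1, S4 and S5, against 17.4, 28.3 and 14.3 CPM in F1, F2 and F3. Most of this level was *Slc6a15*. The 3 that were higher in sterile gonads had 4.24, 6.13 and 12.5 CPM in S1, S4 and S5, against 3.87, 0.758 and 1.503 CPM in F1, F2 and F3. F1 was thus close to S1 in this sum, through *slc6a14*.

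The same fish held the extremes of most members. F2 was the highest fertile fish in 5 of the 6 unigenes that were higher in fertile gonads and the lowest fertile fish in 3 of the 3 that were higher in sterile gonads. Among all unigenes more than 2-fold higher in fertile gonads, F2 was the highest fertile fish in 62.6% of 447. It was the lowest fertile fish in 60.2% of the 787 unigenes more than 2-fold higher in sterile gonads. S5 was the highest sterile fish in 7 of the 9 members and in 22.8% of all tested unigenes. Among these members were all 3 that were higher in sterile gonads, where S5 was highest in 59.0% of the 787 unigenes. The other 4 were higher in fertile gonads, where it was highest in 38.9% of the 447 unigenes. These counts of members are a description only. S1, the only sterile library whose column names a sample, lay outside the fertile range on the side of its group in 8 of 9 members, the exception being *slc6a14*. The members were chosen on fish that included S1, which largely fixed this count. The same share over all tested unigenes was not computed, so nothing is read from it. With S1 as the only sterile library, the log2 fold change was -1.44 for *Slc6a15*, -1.32 for *slc38a2*, -3.26 for *slc6a18*, -3.25 for the *slc1a4* unigene c7534_g2_i1_249_4983 and -2.02 for c7534_g1_i1_400_4982. The last 3 of these values rest on only 1, 1 and 2 counts in S1. No such value is given for c18325_g1_i1_379_3675, which was at 0 in S1.

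Calls over the whole table set the scale for these fold changes. With edgeR's quasi-likelihood test, an adjusted p under 0.05 and a fold above 2, 49 of 35787 tested unigenes (0.137%) were called and 0 of the 7 members that passed the low-count filter. At an unadjusted p under 0.05 with the same fold, 2.96% of unigenes and 7 of 7 members passed, 3 of them higher in sterile and 4 higher in fertile gonads. DESeq2 called 0.933% of unigenes and 3 members (*slc3a2b*, *SLC3A2* and *slc38a2*), while 2 members were given no adjusted p. The exact test of edgeR called 1.49% of unigenes and 6 members, all but *slc6a14*, and limma-voom called 0.0671% of unigenes and 0 members. Because the members were selected from this contrast, their counts say nothing beyond the choice of the list. A p-value here sets the group difference against the spread among 3 fish per group, and all the fish come from 1 family.

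Other solute carriers in S1 File did not share 1 direction. Of 13 such unigenes 8 were tested, and 4 passed an unadjusted p under 0.05 with a fold above 2 in each direction. Their median log2 fold change was 0.05. No tested unigene of these lies near this median, since S1 File was chosen with a fold above 2, so it is not a typical value. The 1 called by edgeR's quasi-likelihood test was *slc35c2* (Contig27480, adjusted p = 0.0162), named for a nucleotide sugar transporter of the Golgi. It had 13.3 ± 4.53 CPM in sterile and 3.33 ± 0.184 CPM in fertile gonads (SD, n = 3 each), while the other unigenes of the same symbol had log2 fold changes of -1.06 and -1.37. The sodium bicarbonate cotransporter *slc4a4a* (c7320_g1_i1_463_4923) had 0.137 ± 0.0925 CPM in sterile and 0.719 ± 0.117 CPM in fertile gonads (SD, n = 3 each).

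Enzymes of amino acid and one-carbon metabolism were also mixed in direction. Of 6 tested unigenes for amino acid and one-carbon enzymes, 3 passed the unadjusted threshold with the sterile fish higher and 3 with the fertile fish higher. None was called. The median log2 fold change was 0.30, which again lies between the directions where the choice of the list leaves no unigene. *bhmt*, which forms methionine from homocysteine with betaine as the methyl donor, had the largest value at 1.74 (Contig13592, standard error 0.35). It had 0.679, 0.728 and 0.709 CPM in S1, S4 and S5, against 0.116, 0.275 and 0.280 CPM in F1, F2 and F3. The sterile fish were close to each other and all above the fertile fish. *chdh*, whose enzyme starts the conversion of choline to betaine, had values of 1.64 and 1.60 for its unigenes. That enzyme acts on choline and not on an amino acid. Among the tested unigenes apart from *chdh*, only *bhmt* was higher in the sterile fish. *cth*, whose enzyme makes cysteine, a substrate of ASCT1, had -1.09 and -1.01, and the alanine transaminase *gpt2l* had -1.44.

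Membrane peptidases trim peptides at the cell surface, and some of them release single amino acids. All 5 tested of 7 unigenes (*enpep*, *fap* and *ace*) passed the unadjusted threshold with the sterile fish higher, none was called, and the median log2 fold change was 2.68. Of the untested unigenes, *anpepa* went the other way, at 0 in all sterile fish and at 3, 2 and 6 counts in F1, F2 and F3. An untested *fap* unigene was higher in the sterile fish. The aminopeptidase *enpep* (Contig23983) had 0.799, 3.50 and 4.96 CPM in S1, S4 and S5, against 0.813, 0.0689 and 0.140 CPM in F1, F2 and F3. Its fish stood in the same order as those of *slc6a14*, with S5 highest, then S4, F1, S1 and F3, and F2 lowest. F1 and S1 had 21 and 20 counts of Contig23983, so their places in this order are not settled. The other tested *enpep* unigene, Contig23982, also had this order, which 0.193% of the other tested unigenes shared with *slc6a14*. This share does not measure how unusual the match is, since *slc6a14* and *enpep* were both chosen as higher in sterile gonads. Among the 787 unigenes more than 2-fold higher in sterile gonads, S5 was the highest sterile fish in 59.0% and F2 the lowest fertile fish in 60.2%.

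**Figure D4:**
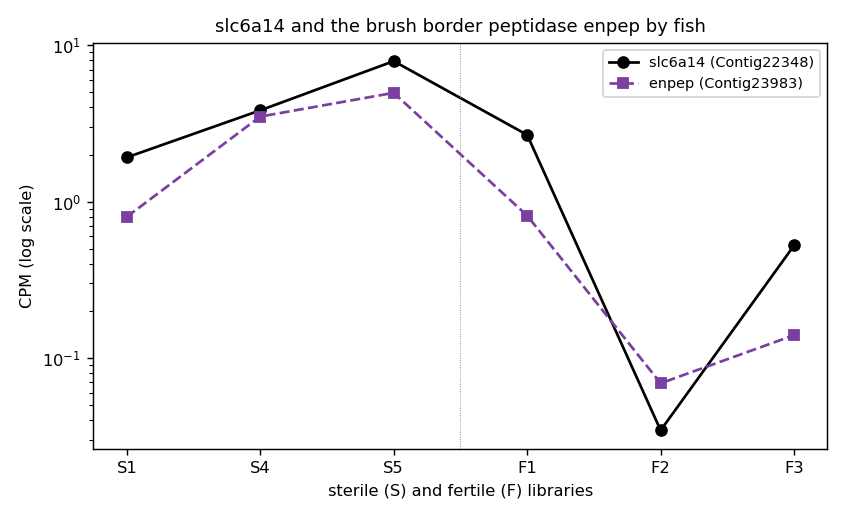
CPM of *slc6a14* (Contig22348, circles) and *enpep* (Contig23983, squares) in each sterile (S) and fertile (F) library on a log axis. Both are highest in S5 (7.92 and 4.96 CPM) and lowest in F2 (0.0344 and 0.0689 CPM). For both F1 lies above S1, but for *enpep* only by 21 against 20 counts.

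The protein digestion and absorption pathway, which the study assigned by mouse matches, held 18 further unigenes. Of 11 tested, 7 passed the unadjusted threshold with the sterile fish higher and 4 with the fertile fish higher, and the median log2 fold change was 1.16. The largest values were 4.05 for the carboxypeptidase *cpa4* and 2.63 for the elastase *ela2*, both enzymes of the exocrine pancreas. The 1 called unigene was the type IV collagen *col4a1*, which was lower in sterile gonads (log2 fold change -1.40). Steroid synthesis, the process for which the follicle cells are best known, had 8 tested unigenes. All 8 passed the unadjusted threshold with the fertile fish higher, 3 of them called (2 unigenes of *Cyp11a1* and *Hsd3b6*), with a median log2 fold change of -3.00, and *CYP11A1*, the first enzyme of the route, had -4.69, followed by *Cyp11b2* at -4.52. All these lists were taken from S1 File and so were chosen on these fish.

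**Figure D5:**
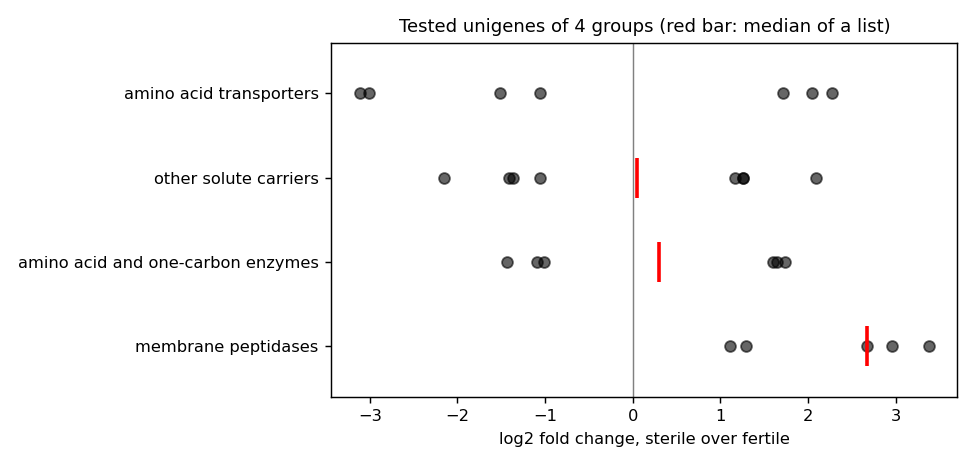
Log2 fold change, sterile over fertile, of the tested unigenes (points) in 4 groups of S1 File, with the median of each list other than the transporters (red bar). The medians are 0.05 for other solute carriers, 0.30 for amino acid and one-carbon enzymes and 2.68 for membrane peptidases, and the transporters lie on both sides of 0. The medians of 0.05 and 0.30 fall in the gap around 0 that the choice of unigenes beyond 2-fold leaves.

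Markers of other cells, also taken from S1 File and so chosen on these fish, went in both directions. That their tested unigenes passed the unadjusted threshold follows from this choice. Of all tested unigenes, 2.96% passed it and 0.137% were called. The summed level of the follicle cell markers was 9.52 to 14.9 CPM in sterile and 29.7 to 51.5 CPM in fertile gonads, highest in F2, as for most transporters that were higher in fertile gonads. All 7 tested of its 10 unigenes passed the unadjusted threshold with the fertile fish higher, 3 were called, and 1 *Cyp11a1* unigene was at 0 in all sterile fish. All of these markers but *fshr* and *nr5a1b* are also in the steroid synthesis list. The 3 called are the same unigenes as those called there, so the lists are not independent. The meiotic markers *sycp3* and *spo11* were lower in sterile gonads too, at 0.236 to 0.280 CPM in sum in sterile and 0.769 to 1.102 CPM in fertile fish.

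The kidney or gut epithelium markers, which hold the *enpep*, *ace* and *anpepa* unigenes of the peptidase list, summed to 13.0, 17.9 and 29.8 CPM in S1, S4 and S5, against 8.79, 4.58 and 7.38 CPM in F1, F2 and F3. All 11 tested of 13 passed the unadjusted threshold with the sterile fish higher, and *anpepa* was at 0 in all sterile fish. Of the 13 unigenes 8 are *lrp2a*, the endocytic receptor megalin, and its Contig27534 had the same order of fish as *slc3a2b*. Of the other tested unigenes 0.338% shared this order, but *lrp2a* and *slc3a2b* were both chosen as higher in sterile gonads, so nothing is read from the match. Exocrine pancreas markers summed to 3.20, 24.0 and 23.1 CPM in S1, S4 and S5, against 2.05, 0.758 and 1.01 CPM in F1, F2 and F3. Among them *zgc:112160* had 0, 134 and 100 counts in S1, S4 and S5 and was at 0 in all fertile fish. In the sum of the pancreas markers S1 was nearer to F1 than to S4 and S5.

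Leukocyte markers summed to 23.8, 19.6 and 27.8 CPM in S1, S4 and S5, against 14.8, 18.7 and 14.7 CPM in F1, F2 and F3. Of 12 tested unigenes 9 passed the unadjusted threshold with the sterile fish higher, and the 3 with the fertile fish higher were all *mpx*, which the mouse matches name thyroid peroxidase and of which c18659_g8_i1_2415_8297 was called. Without *mpx*, an exclusion made after the values were seen, the sums were 18.7 to 27.0 CPM in sterile and 5.65 to 9.65 CPM in fertile fish. The haemoglobin unigene *ba1l* had 0.120, 7.33 and 3.25 CPM in S1, S4 and S5, against 0.194, 0.241 and 0 CPM in F1, F2 and F3. The part of these cell types in the transporter levels was not tested.

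Among named unigenes of S1 File that passed the low-count filter, those most like each leading member were ranked by Pearson's r of log2(CPM + 1) over the 6 libraries, as a description. All share the contrast by which they were chosen, and all points share the depth of their libraries. The closest to *slc3a2b* were *LOC564077* (0.995), *SLC3A2* itself (0.994) and the actin-nucleating subunit *arpc1b* (0.994). For *slc6a14* they were the acid ceramidase *asah1a* (0.998), *stoml3b* (0.984) and *rem2* (0.979). For *Slc6a15* they were *jam2a* (0.993), the secreted Wnt antagonist *sfrp5* (0.990) and *cpn1* (0.988). For *slc1a4* (c18325_g1_i1_379_3675) they were the kinesin *kif3b* (0.987), *si:dkey-178e17.1* (0.986) and *lgi1b* (0.985). For *slc38a2* they were 2 unigenes of the survival factor *bcl2l1* (0.986 and 0.979) and *cox4i2* (0.975). *slc6a18* had looser neighbours, *marcksa* (0.937), *zgc:85866* (0.927) and *gpt2l* (0.883).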

How the data were processed

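Gonad RNA of 3 sterile and 3 fertile DH females was sequenced as paired ends, with 1 library per fish. The authors assembled the reads with Trinity, merged contigs into unigenes with CAP3, gave them symbols by matches to zebrafish, mouse and human, and deposited unnormalized read counts for each unigene. Mapping used BWA (version 0.7.8-r455 by the submitters' processing notes), while counting is credited to Picard in the methods and HTSeq is listed in the notes. The handling of multiply matching reads and of strand was not given in the sources used here. Reads of near-identical unigenes may therefore be divided.

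CPM was computed from the deposited counts and each library's total count. Fold changes came from edgeR 4.0.16 in R 4.3.3 (TMM, filterByExpr, quasi-likelihood test, Benjamini-Hochberg adjustment over all tested unigenes). Standard errors are the absolute log2 fold change over the square root of F. Unigenes with an adjusted p under 0.05 and a fold above 2 were called. The fit was tested on simulated data. Alternatives used DESeq2 1.42.0, limma-voom (limma 3.58.1), edgeR's exact test, other filters, scalings and thresholds, summed symbols and each library left out. S1 as the only sterile library was chosen after seeing the data.

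The members and lists were chosen with earlier results of these data known. All 9 members were named, with the 2 unigenes of largest absolute log2 fold change per list and the 3 most alike per leading member. Other unigenes were named after their values were seen, and 1 gene of the enzyme list is not reported here. S4 and S5 carry no sample number. Of the 7 member symbols 4 are in the RefSeq table of a flounder genome and no unigene identifier is, so no sequence or position is given.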

Additional observations from a re-analysis of the deposited data

How the results depend on the processing

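The 107 fold changes of transporters that could be fitted under 15 alternatives kept their sign, although 23 moved by more than the SD between replicates. The kept signs were largely fixed by the choice of the members on this contrast in these fish. The yardstick for a move differed by unigene. A change from -3.11 to -2.95 (*slc1a4* c7534_g2_i1_249_4983, without S5) counted as a move. One from -1.52 to -1.02 (*Slc6a15*, without F2) did not. Of the 107, 5 were of *slc6a18* and 2 of the *slc1a4* unigene c7534_g1_i1_400_4982, which few settings kept. With same-symbol unigenes summed, the *slc1a4* unigenes share 1 value (-3.05), which was counted for each of them. The fold change of the *slc1a4* unigene c18325_g1_i1_379_3675 is not given without S5 or with S1 alone, since the sterile fish left are at 0. These fits are still counted in the 107. The calls over all unigenes, 49 with edgeR's quasi-likelihood test, were 79 with no filter, 295 with DESeq2, 24 with limma-voom, 533 with edgeR's exact test, 25 with same-symbol unigenes summed and 1059 at an unadjusted p, and 34 to 97 with 1 library left out. Of the transporters 0 were called, against 3 with DESeq2, 6 with the exact test, 7 at an unadjusted p, and 0 to 1 with 1 library left out (*slc38a2* without S5). The causes were not tested. No paired analysis was possible because the columns of the groups share only 1 replicate number. Low counts limit *slc1a4* and *slc6a18*. In the fertile fish they also limit *SLC3A2* (8, 4 and 6 counts in F1, F2 and F3) and *slc6a14* (1 count in F2).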
